A study of Mus musculus with 18 samples.

Results

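Bst2 and 8 other genes of antiviral restriction were followed in TC1 cells, a mouse tumour cell line that the labels call a fibrosarcoma, after editing with a guide against Nat10 (sgNAT10) or against Myc (sgMyc). The 9 genes were chosen by symbol: Bst2, Ifitm2, Ifitm3 and Isg20, which unedited cells express, and Mx1, Mx2, Rsad2, Ifi44 and Ifi27l2a, which are near 0 there. All 9 were among the 28738 genes of the sgMyc mRNA table. The sgNAT10 mRNA table lists 17379 genes and 6 of the 9, without Mx1, Mx2 and Rsad2. The table of ribosome-protected fragments (Ribo-seq footprints) lists 10974 genes and 5 of the 9, without Ifi44 as well. In the acRIP-seq table, which lists peaks of immunoprecipitated acetylated RNA in 1066 genes, only Bst2 and Isg20 had a peak. Messenger RNA was sequenced in 2 sgNAT10 and 2 unedited (WT) libraries in one set and in 3 sgMyc and 3 WT libraries in another. Footprints came from 2 sgNAT10 and 2 WT libraries, and acRIP-seq from 1 precipitated and 1 input library of each genotype. Every comparison was with unedited TC1 cells of the same table, and no library carried a control guide. The labels give no treatment, and they do not say whether an edited line was 1 clone or a pool, or whether replicates were separate cultures. P-values therefore measure the spread between these libraries, which may be technical.

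Restriction factors are proteins with which a cell blocks steps of viral infection from within. Most are induced by interferon, whose receptor activates transcription factors that bind the interferon-stimulated response element (ISRE) in promoters. Bst2, also called tetherin, holds budding enveloped viruses at the cell surface. Ifitm2 and Ifitm3 sit in membranes of the cell surface and of endosomes and hinder fusion of enveloped viruses. Isg20 is an exonuclease that degrades RNA. Mx1 and Mx2 are dynamin-like GTPases that act on incoming viruses, Rsad2 (viperin) makes a nucleotide that ends viral RNA chains, and Ifi44 and Ifi27l2a are interferon-induced genes whose products are less well understood.

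Promoter sequences are shown because, among members with such a sequence, those that moved most in the sgMyc set differ in whether it holds the ISRE letters searched. Other forms of the ISRE were not searched. RefSeq windows on GRCm38.p6, each 250 bases before and 50 after an annotated start, existed for 6 of the 9 members. The motif searched, on both strands, was a pair of GAAA tetramers with any 2 bases between them, and its matches are in capitals below. Positions count from 0 at the first base of the transcript. It was present in 3.44% of all 32851 windows and in those of Bst2, Ifitm2, Ifitm3 and Rsad2. The windows of Bst2 (chr8:71537423-71537722), Ifitm2 (chr7:140955912-140956211), Ifitm3 (chr7:141010695-141010994), Rsad2 (chr12:26456403-26456702) and Ifi44 (chr3:151749861-151750160) are given 5′ to 3′ on the minus strand, where all 5 genes lie.
Bst2: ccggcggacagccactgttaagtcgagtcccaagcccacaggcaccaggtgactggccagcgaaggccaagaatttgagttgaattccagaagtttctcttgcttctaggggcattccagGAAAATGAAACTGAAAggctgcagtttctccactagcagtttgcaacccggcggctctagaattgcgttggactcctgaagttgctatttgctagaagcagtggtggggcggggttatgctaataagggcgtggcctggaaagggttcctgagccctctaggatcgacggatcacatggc
Ifitm2: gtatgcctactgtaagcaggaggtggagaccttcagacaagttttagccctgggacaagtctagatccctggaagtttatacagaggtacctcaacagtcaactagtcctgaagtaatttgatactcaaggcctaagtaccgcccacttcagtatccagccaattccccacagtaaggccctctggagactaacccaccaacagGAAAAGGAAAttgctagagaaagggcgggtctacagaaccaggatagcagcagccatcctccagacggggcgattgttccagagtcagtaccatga
Ifitm3: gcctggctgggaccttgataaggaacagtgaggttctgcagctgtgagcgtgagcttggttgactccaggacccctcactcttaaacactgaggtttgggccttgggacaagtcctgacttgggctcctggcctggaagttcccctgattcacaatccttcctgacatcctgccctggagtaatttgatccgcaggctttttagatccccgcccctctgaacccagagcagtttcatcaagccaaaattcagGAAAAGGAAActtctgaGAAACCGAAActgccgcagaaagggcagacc
Rsad2: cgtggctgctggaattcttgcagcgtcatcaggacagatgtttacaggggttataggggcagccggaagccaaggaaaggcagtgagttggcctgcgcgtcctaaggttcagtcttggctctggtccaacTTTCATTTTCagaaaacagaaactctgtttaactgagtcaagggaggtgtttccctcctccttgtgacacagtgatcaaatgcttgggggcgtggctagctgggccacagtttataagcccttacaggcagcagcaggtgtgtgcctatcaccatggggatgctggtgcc
Ifi44: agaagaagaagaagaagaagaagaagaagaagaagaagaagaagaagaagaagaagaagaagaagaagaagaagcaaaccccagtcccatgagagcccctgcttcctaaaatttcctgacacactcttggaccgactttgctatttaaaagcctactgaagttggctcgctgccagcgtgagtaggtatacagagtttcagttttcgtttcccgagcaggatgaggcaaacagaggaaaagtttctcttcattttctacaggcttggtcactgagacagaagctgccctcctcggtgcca
Bst2 held 2 overlapping matches that begin at positions -130 and -124. Ifitm3 held 2 matches just after its start, beginning at positions 2 and 19, and Ifitm2 held 1 match that begins at position -46. The match of Rsad2 is read on the other strand and spans positions -120 to -111. The Ifi44 window and the 3 Isg20 windows held no match, which says only that these letters are not in them. The E-box CACGTG, which MYC binds, was sought on both strands and was in none of the 6 members' windows (7.15% of all windows). The GAS element TTCNNNGAA, a second interferon-response motif, was in those of Bst2, Ifitm3 and Isg20 (8.30% of all windows). The GAS match of Bst2 overlaps its first ISRE match, and that of Ifitm3 overlaps its second.

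The depth and the labels bear on every value that follows. The counts of a library summed to between 57363229 and 65768024 in sgMyc and between 51875052 and 55900895 in WT. Reads recovered from the deposited values are the smallest whole numbers that fit each gene. For mRNA they summed to 11991829 and 11220755 in sgNAT10 and 14677829 and 12278115 in WT. For footprints they summed to 3148083 and 1514086 in sgNAT10 and 2743627 and 2694834 in WT. Nat10 mRNA was 3.59 and 3.95 FPKM (fragments per kilobase of gene, scaled to library size) in sgNAT10, against 5.36 and 5.30 FPKM in WT. Myc mRNA was 21.1, 20.9 and 34.1 FPKM in sgMyc, against 64.8, 61.6 and 70.8 FPKM in WT. Myc was low under both guides: it was 39.98 and 40.92 FPKM in sgNAT10, against 114.9 and 116.7 FPKM in WT of that set (limma log2 fold change -1.49, adjusted p = 9.41e-06). Nat10 was 3.52, 3.31 and 6.27 FPKM in sgMyc, against 5.01, 4.86 and 5.13 FPKM in WT. The library sgMyc replicate 3 stood apart from sgMyc replicates 1 and 2: it differed by at least 2-fold from replicate 1 in 698 of 11907 genes and from replicate 2 in 700, while replicates 1 and 2 differed so in 30 genes. Calls of members and counts on other lists of genes in the sgMyc set are given with and without that library. Fold changes of single genes on those lists are given over all libraries only. Of the cell type markers, Coro1a, the only general leukocyte marker listed, was at most 0.497 FPKM in any sgMyc or WT library of the sgMyc set. Those of epithelium summed to at most 0.862 FPKM there. The 7 fibroblast markers summed to 178 to 454 FPKM in sgMyc and 120 to 139 FPKM in WT there, and to 96.4 to 97.3 FPKM in sgNAT10 and 22.1 to 22.8 FPKM in WT in the sgNAT10 mRNA set. The list was not uniform there: Col3a1 was 3.18 and 3.66 FPKM in sgNAT10, against 4.29 and 4.34 FPKM in WT, and Pdgfrb was lower too. In the same set the macrophage markers summed to 12.2 to 13.7 FPKM in sgNAT10 and 5.49 to 5.996 FPKM in WT. They were not uniform either. Cd14 was 10.7 and 8.75 FPKM in sgNAT10, against 2.41 and 2.15 FPKM in WT. Csf1r was lower, at 1.90 and 1.98 FPKM in sgNAT10, against 2.14 and 2.42 FPKM in WT. Cd68 overlapped, at 1.02 and 1.48 FPKM in sgNAT10, against 0.944 and 1.43 FPKM in WT. The B cell gene Cd79a was 0.0398 and 0.0425 FPKM in sgNAT10, against 1.85 and 1.49 FPKM in WT. The part of these markers in the results was not tested.

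Under the Nat10 guide the mRNA of the members expressed in WT split in 2 directions. Bst2 fell to 0.412 and Isg20 to 0.456 of the WT mean, while Ifitm3 rose to 1.42 times and Ifitm2 to 1.18 times the WT mean. Bst2 mRNA was 16.8 and 14.7 FPKM in sgNAT10, against 37.7 and 38.6 FPKM in WT. Isg20 mRNA was 4.74 and 4.33 FPKM in sgNAT10, against 9.69 and 10.2 FPKM in WT. Both sgNAT10 libraries were below both WT libraries in each of these genes. Ifitm3 mRNA was 129.8 and 123 FPKM in sgNAT10, against 88.3 and 90.4 FPKM in WT. Ifitm2 mRNA was 132 and 130.4 FPKM in sgNAT10, against 111 and 110.3 FPKM in WT. For the 2 Ifitm genes both sgNAT10 libraries were above both WT libraries.

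All 4 passed limma on log2(FPKM + 1), with p-values adjusted by Benjamini-Hochberg over 11735 genes. The log2 fold change was -1.23 for Bst2 (SE 0.0652, adjusted p = 9.21e-05) and -0.98 for Isg20 (SE 0.0577, adjusted p = 0.000125). It was 0.50 for Ifitm3 (SE 0.0359, adjusted p = 0.000239) and 0.24 for Ifitm2 (SE 0.0263, adjusted p = 0.00095). A call was common in this comparison: 33.7% of all genes tested were higher and 29.6% lower, so the count of 2 higher and 2 lower among 4 is near the background. The opposite directions of the pairs held under every alternative tried. In bulk samples, fewer expressing cells and less RNA per cell cannot be told apart. Ifitm2 and Ifitm3 are near relatives 49.9 kb apart on chromosome 7, and how reads shared by both were counted is not given in the sources used here.

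Of the members near 0 in WT, the 2 that this table lists were under 1 FPKM in every sgNAT10 and WT library. Ifi44 was 0.0947 and 0.0708 FPKM in sgNAT10, against 0.0223 and 0.0267 FPKM in WT, from 10 and 7 recovered reads against 3 and 3. Ifi27l2a was 0.501 and 0.268 FPKM in sgNAT10, against 0.592 and 0.941 FPKM in WT. Its recovered reads, 2 and 1 against 3 and 4, are the smallest whole numbers in that ratio, and the true reads can be a multiple of them. Both genes were under the minimum mean of 1 FPKM and were not tested. With so few reads neither difference can be read as a change.

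**Figure D1:**
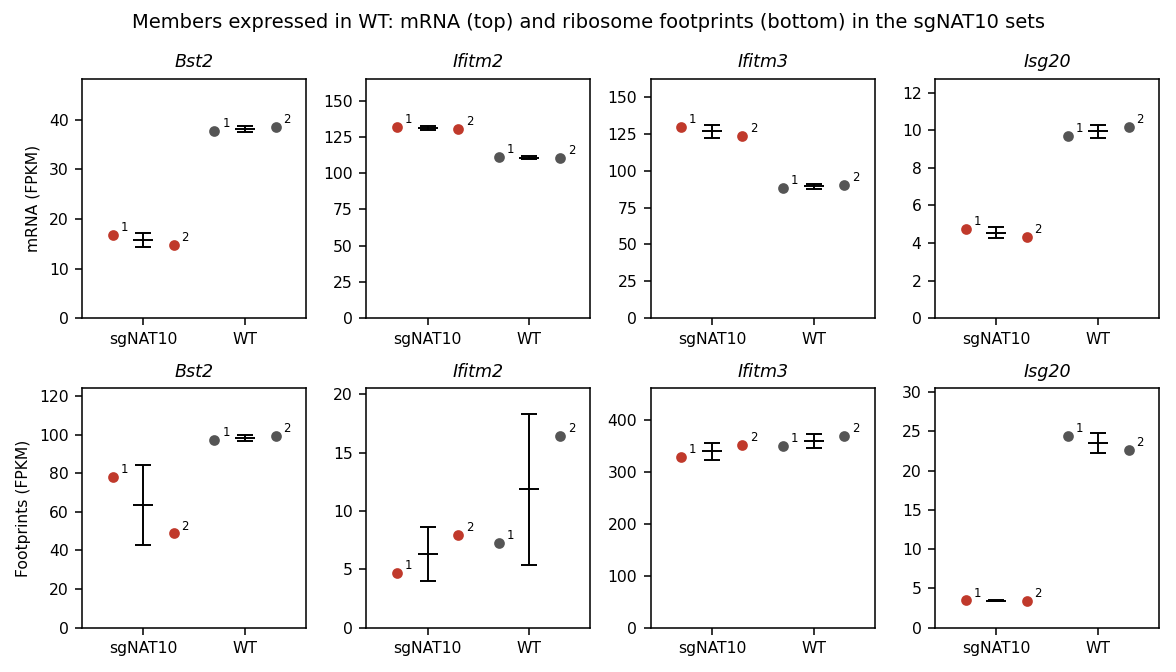
Messenger RNA (top row) and ribosome footprints (bottom row) in FPKM of Bst2, Ifitm2, Ifitm3 and Isg20 in sgNAT10 and WT libraries; points are libraries marked with their replicate number, and the black bar and whiskers are the mean and SD (n = 2). Bst2 and Isg20 were lower in sgNAT10 in both rows, while the Ifitm genes were higher in mRNA only.

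Footprints asked whether the change in mRNA reached the ribosomes. Among the 4 members with footprints in both genotypes, Isg20 had the widest fold: its footprints were 3.46 and 3.43 FPKM in sgNAT10, against 24.4 and 22.6 FPKM in WT. Those values rest on 23 and 11 reads in sgNAT10 and 143 and 129 reads in WT, and the genotypes did not overlap. Bst2 footprints were 78.2 and 48.8 FPKM in sgNAT10, against 97.3 and 99.2 FPKM in WT. The sgNAT10 libraries were again the lower ones, but they lay far apart from each other. Ifitm3 footprints were 328 and 350.5 FPKM in sgNAT10, against 349 and 368 FPKM in WT, with overlapping genotypes. Ifitm2 footprints were 4.70 and 7.96 FPKM in sgNAT10, against 7.26 and 16.4 FPKM in WT, from no more than 33 reads a library, and the genotypes overlapped too. Ifi27l2a was listed at 0 in both sgNAT10 libraries and in 1 WT library, and at 26.0 FPKM in the other WT library, so its WT footprints come from a single library.

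Isg20 alone passed limma among the 5 members tested, where 1.28% of 9707 genes were lower and 1.81% higher. Its log2 fold change was -2.46 (SE 0.271, adjusted p = 0.0138). The call was lost without any 1 of the 4 libraries, with an adjusted p between 0.139 and 0.276 and a log2 fold change between -2.51 and -2.41. The log2 fold change was -0.66 for Bst2 (adjusted p = 0.203), -0.75 for Ifitm2 (adjusted p = 0.429), -0.08 for Ifitm3 (adjusted p = 0.742) and -2.38 for Ifi27l2a (adjusted p = 0.423).

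The members differed widely in footprints per mRNA. Ifitm2 had 0.0483 footprint FPKM per mRNA FPKM in sgNAT10 and 0.107 in WT, against a median over 9200 genes of 1.14 in sgNAT10 and 1.15 in WT. Its WT ratio stood at percentile 1.59 of those genes. Ifitm3, its neighbour, had 2.68 in sgNAT10 and 4.01 in WT. How reads common to the pair were assigned was not tested. Bst2 had 4.04 in sgNAT10 and 2.58 in WT, and Isg20 had 0.759 in sgNAT10 and 2.36 in WT.

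**Figure D2:**
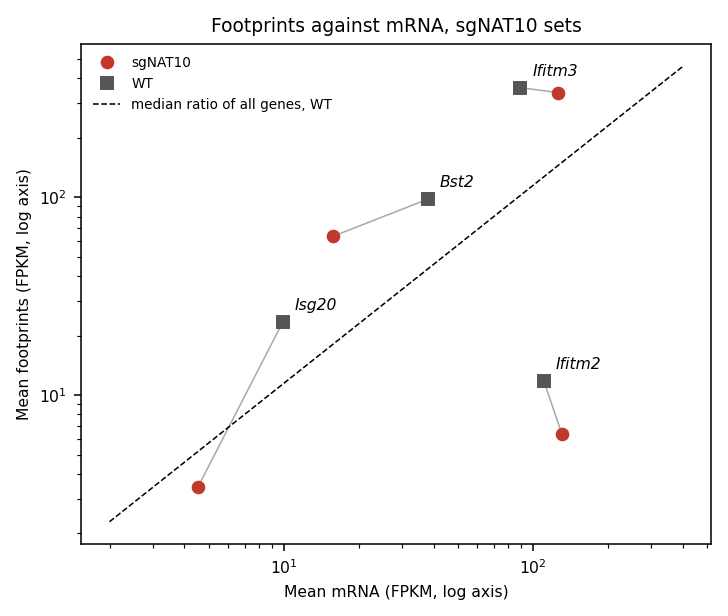
Mean footprint FPKM against mean mRNA FPKM (both on log axes) for the 4 members expressed in WT, with a line joining each gene's sgNAT10 point (circle) and WT point (square); the dashed line is the median ratio of 9200 genes in WT (1.15). Ifitm2 lies far below the line in both genotypes, and Isg20 lies below it in sgNAT10 and above it in WT.

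Translational efficiency was tested as the interaction of genotype with assay in 1 limma model. None of the 4 members tested passed, where 0.152% of 9200 genes were higher and 0.109% lower. Isg20 had a log2 difference of -1.48 (SE 0.187, adjusted p = 0.0529) and Ifitm3 one of -0.58 (SE 0.0928, adjusted p = 0.0926). Those 2 had an unadjusted p below the threshold of 0.05, at 0.000149 for Isg20 and 0.000588 for Ifitm3. Bst2 had 0.57 (adjusted p = 0.515) and Ifitm2 -0.99 (adjusted p = 0.515). The quasi-likelihood test of edgeR on recovered reads called none of the 4 either. Array weights per assay and the replicate number as a block called none as well. Without either WT footprint library the model called both Isg20 (adjusted p = 0.0243 without replicate 1, 0.0219 without replicate 2) and Ifitm3 (0.0349 and 0.0376 in the same order). Without an sgNAT10 footprint library it called Isg20 (0.0328 without replicate 1, 0.0372 without replicate 2). That model takes 1 spread per gene for both assays. Its SE was below that of footprints alone for Isg20 (0.187 against 0.271) and Ifitm3 (0.0928 against 0.115). A fit without a footprint library leaves 1 such library in a group, and more of its spread then comes from the mRNA libraries. The calls gained in this way are therefore no added support.

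Acetylated RNA was described from the authors' deposited table, which holds no replicates. Bst2 had 1 peak of 176 bases in its coding sequence (mm10 chr8:71537136-71537311, minus strand), which lies 161 to 336 bases from the gene's start. The authors' deposited table gives it a fold enrichment of 2.8. Isg20 had 1 peak of 151 bases in its coding sequence (mm10 chr7:78914366-78914516, plus strand), 970 to 1120 bases from the gene's start, with a fold enrichment of 2.75 in the authors' deposited table. The median enrichment over the 1358 peaks of that table was 1.77. The authors' log2 difference between genotypes was -3.22 for the Bst2 peak and -3.34 for the Isg20 peak, against a median of 0.12 over all peaks. Of all peaks, 5.01% had a lower difference than the Bst2 peak and 4.71% a lower one than the Isg20 peak. Since the file leaves unstated which genotype forms the numerator, no direction is read from these differences. Both members with a peak had lower mRNA in sgNAT10, in a comparison where 29.6% of all genes tested were lower. Whether peaks go with lower mRNA was not tested.

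The sgMyc set asked what the Myc guide did to the same genes. In sgMyc replicates 1 and 2 all 9 members were above every WT library. Their mean there was 1.88-fold (Ifitm2) to 1065-fold (Ifi44) the WT mean, apart from Rsad2, which had no count in WT. In sgMyc replicate 3 every member was lower than in the other sgMyc libraries. Isg20 was below all WT libraries there, and so, by a narrow margin, was Ifi27l2a. Over all libraries edgeR called 6 of 9 members higher and none lower, where 7.11% of 16794 genes were higher and 8.86% lower. Without sgMyc replicate 3 it called all 9 higher, where 26.6% of 17485 genes were higher and 26.9% lower. The library that stands apart had the highest Myc of the 3, at 34.1 FPKM, and the part of this in the result was not tested. Ifnb1, which encodes interferon beta, was 1.36, 0.981 and 0.0605 FPKM in sgMyc, against 0, 0 and 0.0430 FPKM in WT.

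**Figure D3:**
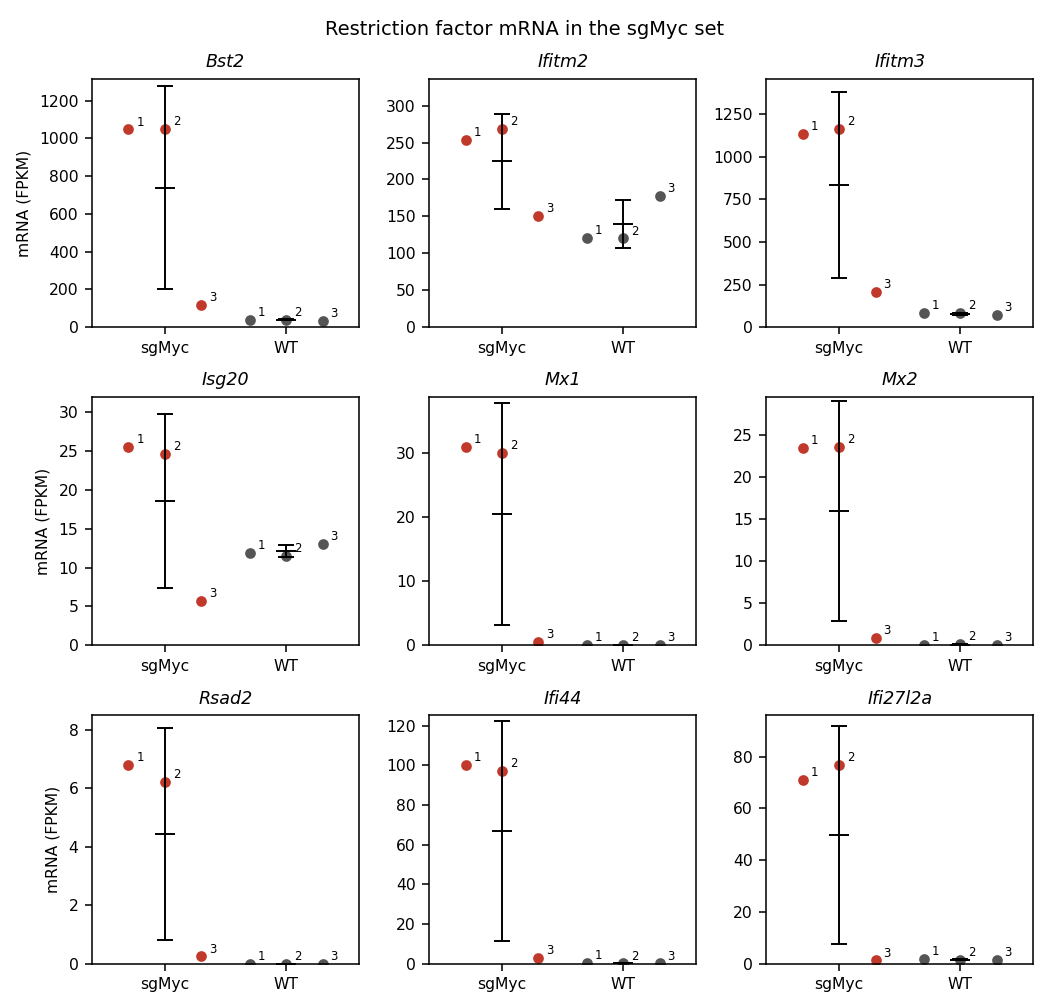
FPKM of the 9 restriction factors in the 3 sgMyc and 3 WT libraries of the sgMyc set; points are libraries marked with their replicate number, and the black bar and whiskers are the mean and SD (n = 3). Replicates 1 and 2 of sgMyc lie together above replicate 3 in every panel. Replicate 3 of sgMyc lies below the WT points for Isg20 and, by a narrow margin, for Ifi27l2a.

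Among the members expressed in WT, Bst2 and Ifitm3 were raised the most. Bst2 was 1048, 1053 and 117 FPKM in sgMyc, against 39.5, 39.3 and 34.4 FPKM in WT. All 3 sgMyc libraries were above all WT libraries. Replicate 3 had 3.09-fold the WT mean, and replicates 1 and 2 together had 27.8-fold the WT mean. The log2 fold change of Bst2 was 4.28 (SE 0.799, adjusted p = 0.0178), and 4.83 without sgMyc replicate 3 (SE 0.0548, adjusted p = 3.57e-11). Ifitm3 was 1136, 1167 and 205 FPKM in sgMyc, against 80.9, 80.4 and 71.9 FPKM in WT, again with no overlap. Its log2 fold change was 3.42 (SE 0.627, adjusted p = 0.0169), and 3.92 without replicate 3 (adjusted p = 5.03e-11).

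Ifitm2 and Isg20 moved less, and their genotypes overlapped. Ifitm2 was 254, 269 and 151 FPKM in sgMyc, against 121, 120.1 and 177 FPKM in WT, so that sgMyc replicate 3 lay within the WT range. Isg20 was 25.5, 24.6 and 5.68 FPKM in sgMyc, against 11.9, 11.5 and 13.1 FPKM in WT. Replicates 1 and 2 had about 2.06-fold the WT mean of Isg20, and replicate 3 had 0.467 of it. Neither passed edgeR over all libraries, with a log2 fold change of 0.68 for Ifitm2 (adjusted p = 0.125) and 0.60 for Isg20 (adjusted p = 0.479). Without sgMyc replicate 3 both passed, at 0.94 for Ifitm2 (adjusted p = 0.000532) and 1.07 for Isg20 (adjusted p = 1.66e-06).

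The members near 0 in WT reached 6.23 to 100.2 FPKM in sgMyc replicates 1 and 2. Ifi44 was 100.2, 97.3 and 2.74 FPKM in sgMyc, against 0.125, 0.0816 and 0.0720 FPKM in WT. Mx1 was 30.9, 29.97 and 0.517 FPKM in sgMyc, against 0.0665, 0.123 and 0 FPKM in WT. Mx2, which lies 73.2 kb from Mx1 on chromosome 16, was 23.4, 23.6 and 0.928 FPKM in sgMyc, against 0.0533, 0.158 and 0.0685 FPKM in WT. For these 3 genes even replicate 3 was above every WT library. Rsad2 was 6.80, 6.23 and 0.245 FPKM in sgMyc and had no count in any WT library. Over a floor of 3 counts for the WT group, it was at least 1713-fold higher in replicates 1 and 2 together and at least 64.6-fold higher in replicate 3. Ifi27l2a was 71.1, 76.7 and 1.23 FPKM in sgMyc, against 1.74, 1.51 and 1.44 FPKM in WT. Its WT level was above 1 FPKM, the highest WT level of these 5, and its sgMyc replicate 3, with 42 reads against 50, 41 and 42 in WT, cannot be told from WT at this depth.

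Of these 5 genes, 4 passed edgeR over all libraries. The log2 fold change was 9.45 for Ifi44 (SE 1.52, adjusted p = 0.0113), 8.32 for Mx1 (SE 1.77, adjusted p = 0.0264) and 7.36 for Mx2 (SE 1.36, adjusted p = 0.0171). Rsad2 passed with an adjusted p of 0.0397. Ifi27l2a did not pass, at 4.94 (SE 1.33, adjusted p = 0.0525). Limma on log2(FPKM + 1) called none of the 5, with adjusted p-values between 0.0541 (Ifi44) and 0.171 (Ifi27l2a), of which all but that of Ifi27l2a had an unadjusted p below 0.05. Without a filter on low counts edgeR lost Rsad2 (adjusted p = 0.0633). Without sgMyc replicate 3 the log2 fold change was 10.06 for Ifi44, 8.95 for Mx1, 7.97 for Mx2 and 5.56 for Ifi27l2a, and all 5 passed. The calls of the whole set of 9 were also sensitive to other libraries. Without any 1 WT library no member passed, with a lowest adjusted p of 0.0656 for Ifi44. Without sgMyc replicate 1 only Ifi44 (adjusted p = 0.0345) and Mx2 (adjusted p = 0.0483) passed, and without sgMyc replicate 2 only Ifi44 (adjusted p = 0.0369).

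Set side by side, the members near 0 in WT had wider folds than those expressed in WT in sgMyc replicates 1 and 2, and the groups overlapped in replicate 3. In sgMyc replicates 1 and 2 the median fold over the WT mean was 367 over the 4 members near 0 that have a fold, with a range of 47.3 to 1065. Over the 4 members expressed in WT it was 8.44, with a range of 1.88 to 27.8. In replicate 3 the medians were 9.06 for the members near 0, with a range of 0.789 to 29.5, and 1.86 for those expressed in WT, with a range of 0.467 to 3.09. The ranges overlapped there, and Ifi27l2a had the lowest fold of the members near 0. The groups were defined by the WT level that is also the denominator of the fold, so this is a description with no test. On the scale of levels the order was another: Ifitm3 and Bst2 were the highest members in sgMyc replicates 1 and 2, and the gain in FPKM of each there exceeded the whole level of every member near 0 in WT. Replicates 1 and 2 exceeded replicate 3 by 59.9-fold in Ifi27l2a and 58.9-fold in Mx1, but by 1.73-fold in Ifitm2 and 4.41-fold in Isg20.

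**Figure D4:**
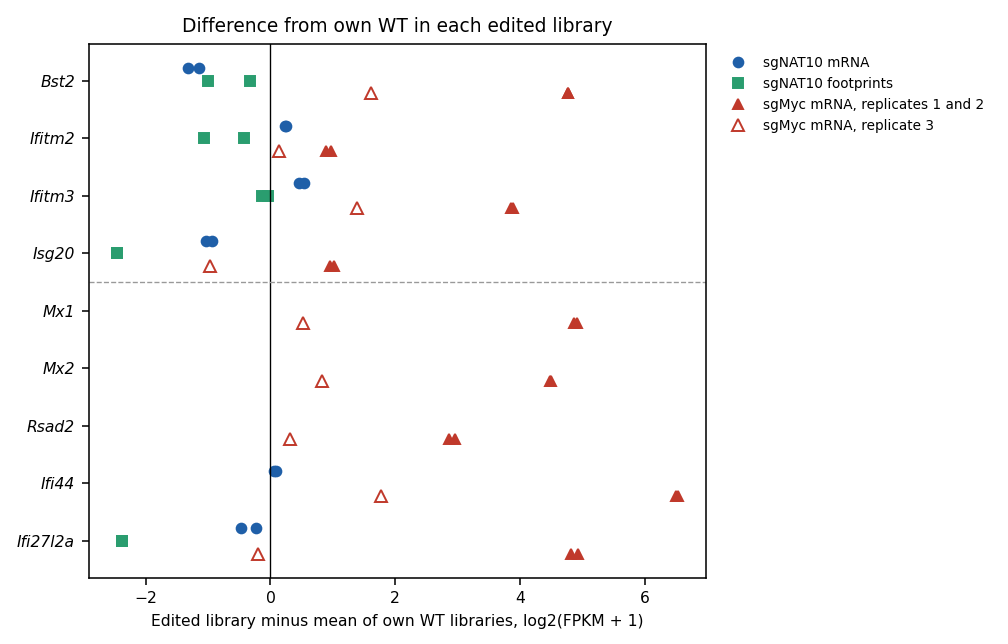
Difference of each edited library from the mean of its own WT libraries on the log2(FPKM + 1) scale, for the members expressed in WT (above the dashed line) and near 0 in WT (below it); circles are sgNAT10 mRNA, squares sgNAT10 footprints and triangles sgMyc mRNA, with replicate 3 open. Bst2 lies left of 0 in sgNAT10 and right of it in all sgMyc libraries, and members with no sgNAT10 point are not listed in that table.

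The difference between the edits was tested for the 4 members in both mRNA tables, as the sgNAT10 effect minus the sgMyc effect in 1 limma model. Each effect was taken against the WT libraries of its own table, since the tables were normalised separately. Bst2 passed: its difference was -4.94 on the log2(FPKM + 1) scale (SE 1.16, adjusted p = 0.0188), where 6.78% of 10265 genes were lower and 14.2% higher. It is the member that went opposite ways in all libraries, lower in both sgNAT10 libraries and higher in all 3 sgMyc libraries than in WT. Leaving out any 1 library of the sgNAT10 set ended that call, with an adjusted p between 0.0642 and 0.0736. Ifitm3 had -2.55 (SE 0.914, adjusted p = 0.0863), Isg20 -1.32 (adjusted p = 0.247) and Ifitm2 -0.42 (adjusted p = 0.462), and none of the 3 passed. Without sgMyc replicate 3 all 4 passed, where 23.2% of 10256 genes were lower and 36.4% higher: Bst2 at -6.00, Ifitm3 at -3.38, Isg20 at -1.97 and Ifitm2 at -0.68.

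The genes whose pattern was most like that of Bst2 were found over the 14 mRNA and footprint libraries, each value being log2(FPKM + 1) minus the mean of its own table's WT libraries. Among 9056 genes with at least 1 FPKM on average in each table, the 5 with the highest Pearson r were Samd9l (0.986), Zc3hav1 (0.985), Ly6e (0.985), Lgals3bp (0.983) and Ddx24 (0.980). Samd9l mRNA, for example, was 1.03 and 1.06 FPKM in sgNAT10, against 2.61 and 2.57 FPKM in WT, and 49.0, 48.1 and 6.39 FPKM in sgMyc, against 3.15, 3.26 and 3.80 FPKM in WT. Of the members, Ifitm3 ranked 44 (r = 0.937), Ifitm2 477 (0.631) and Isg20 483 (0.627). These correlations describe libraries that share a table and its WT mean, and 2 of the 14 libraries, sgMyc replicates 1 and 2, hold the widest differences of Bst2 from WT.

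Other genes of the same defence were read from fixed lists. In the sgNAT10 mRNA set, 1 of 12 other restriction factors tested was higher and 9 were lower, with a median log2 fold change of -0.24 against 0.01 over all genes; of all genes 33.7% were higher and 29.6% lower. Mov10, an RNA helicase, had -0.97 (adjusted p = 5.36e-05) and Trim25, a ubiquitin ligase of the RIG-I pathway, had -0.96 (adjusted p = 0.000163), while Serinc3, a membrane protein that lowers the infectivity of retroviruses, had 0.45 (adjusted p = 0.000264). Of 9 genes of the interferon signal tested, 4 were higher and 1 lower, with a median of 0.24, and the share higher is near that of all genes (33.7%). Jak1, a kinase of the interferon receptor, had 1.21 and the ubiquitin-like modifier Isg15 had 1.04, while the transcription factor Irf1 had -0.86. Ifi27, a relative of Ifi27l2a, had 0.18 (adjusted p = 0.0411). No OAS gene reached the minimum level. In footprints none of the 13 other restriction factors tested passed, and of 10 genes of the interferon signal only Jak1 did (log2 fold change 1.24, adjusted p = 0.0241). In the model of translational efficiency none of the genes on these lists passed.

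In the sgMyc set every called gene of these lists was higher, where 7.11% of all genes were higher over all libraries and 26.6% without sgMyc replicate 3. Several OAS proteins, though not all, sense double-stranded RNA and make short oligoadenylates in response. All 8 OAS genes tested were higher, with a log2 fold change between 3.13 (Oas1c) and 9.70 (Oas2), against a median of -0.03 over all genes. Oas2 was 29.8, 30.4 and 0.777 FPKM in sgMyc, against 0.0145, 0.0237 and 0.0290 FPKM in WT (adjusted p = 0.0137), and Oasl2 had a log2 fold change of 7.29. Of 15 other restriction factors tested, 7 were higher, led by Trim30a (6.28) and Trim21 (3.92), with a median of 1.21. Of 5 relatives and neighbours tested, 3 were higher, among them Ifitm6 (3.69) and Ifi27 (1.15), with a median of 1.15. Of 13 genes of the interferon signal tested, 8 were higher, led by Usp18 (8.02) and Irf7 (7.17), with a median of 1.08. Without sgMyc replicate 3 all 8 OAS genes were higher, as were 15 of 15 other restriction factors, 5 of 6 relatives and neighbours and 14 of 14 genes of the interferon signal. Ifi27 and Jak1 differed little between the 3 sgMyc libraries: Ifi27 was 66.7, 66.6 and 66.9 FPKM in sgMyc, against 29.99, 29.1 and 31.0 FPKM in WT, and Jak1 was 75.8, 75.7 and 68.5 FPKM in sgMyc, against 47.6, 47.4 and 44.1 FPKM in WT. The macrophage markers summed to 15.9 to 29.3 FPKM in sgMyc and 11.2 to 12.3 FPKM in WT, with Lyz2 at 0 in all sgMyc libraries, and their part in these results was not tested.

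When the sgMyc effect was subtracted from the sgNAT10 effect over all libraries, 2 of 12 other restriction factors passed, where 6.78% of all genes were lower and 14.2% higher. Both were lower: Trim25 at -2.84 (adjusted p = 0.0161) and Mov10 at -1.58 (adjusted p = 0.0249). Ifi27 was lower too, at -0.95 (adjusted p = 0.000251). Jak1 was higher, at 0.56 (adjusted p = 0.00518), having risen under both edits.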

How the data were processed

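RNA of TC1 cells was analysed from deposited tables. FastQC, Trim Galore, Bowtie2 and featureCounts with the build mm10 are named in the submitters' processing notes, without versions or order. The sgMyc table as deposited gives a read count and an FPKM value per gene and library, per the file headers. The tables of the sgNAT10 sets give FPKM beside the authors' log2 fold changes and p-values, per the file headers. In the deposited acRIP table each peak has a fold enrichment, which is a ratio over input, and a log2 difference and log10 scores of the authors. For the sgNAT10 tables, limma 3.58.1 in R 4.3.3, with a variance trend, was run on log2(FPKM + 1) of the genes that averaged 1 FPKM or more. Counts of the sgMyc set were tested with edgeR 4.0.16 (filterByExpr, TMM, quasi-likelihood), with DESeq2 1.42.0 as an alternative. Benjamini-Hochberg adjustment ran over all genes tested, and a call needed an adjusted p-value below 0.05. Ratios of FPKM between libraries fitted whole numbers, to within 1e-09, for 99.8% of genes of the mRNA table and 99.98% of the Ribo-seq table. The smallest such numbers were taken as reads. A factor common to all libraries of a gene is lost in this way, so its reads can be too low. Library sums of recovered reads and edgeR on them carry this limit. The scripts were tested on simulated data. Standard errors of edgeR were worked back from the log2 fold change and the quasi-likelihood F statistic. No column of per-sample values was left unmapped. Members, lists and tests were chosen with earlier results of these data known. The text names every member, both edited genes, and for each list and comparison the 2 called genes with the largest change each way. Ifnb1, Oas1c, Col3a1, Pdgfrb, Cd14, Csf1r, Cd68, Coro1a, Cd79a, the per-library values of Jak1 and Ifi27 and the order of members by level were chosen after the values were seen. Some genes on these lists are not reported here.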

Additional observations from a re-analysis of the deposited data

Results flagged for a closer look

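The effect of the edits on Bst2 mRNA differed by -4.942 on the log2(FPKM + 1) scale (sgNAT10 effect minus sgMyc effect; limma interaction, SE 1.16, adjusted p = 0.0188), and this test of the difference between the edits is what marked it. Bst2 averaged 15.7 ± 1.47 FPKM in sgNAT10 and 38.2 ± 0.625 FPKM in WT of that set (SD, n = 2 each), and 739 ± 539 FPKM in sgMyc and 37.7 ± 2.87 FPKM in WT of the other set (SD, n = 3 each). The wide SD in sgMyc comes from replicate 3, and without that library the difference was -6.00 (adjusted p = 3.1e-10). Leaving out any 1 library of the sgNAT10 set, by contrast, ended the call on Bst2.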

How the results depend on the processing

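Over 26 results on single members, 313 alternatives were computed: 256 kept the direction and the side of the threshold, 42 kept the direction but lost the call, 15 kept it and gained one, and none turned the direction. In the sgNAT10 mRNA set 2 members were higher and 2 lower under every alternative, although quantile normalisation (3464 genes higher, 3992 lower) and median scaling (3409 and 4107) turned the balance of all genes from 3960 higher and 3471 lower. In footprints 1 member was lower, and 0 were whichever library was left out; over all genes the calls then fell to at most 8 higher and 1 lower, from 176 and 124, and limma without a trend called 45 and 42 and edgeR on recovered reads 399 and 378. In translational efficiency 0 members were lower, and 0 to 2 were when 1 library was left out; over all genes 14 were higher and 10 lower, against 0 and 3 with array weights per assay, 7 and 10 with edgeR on recovered reads, and 0 to 376 and 3 to 264 when 1 library was left out. In the sgMyc set 6 members were higher; limma on log2(FPKM + 1) called 2, DESeq2 8, no filter 5, and leaving out 1 library 0 to 9. Over all genes 1194 were higher and 1488 lower there, against 753 and 1082 with limma, 2090 and 1702 with DESeq2, and 187 to 4658 and 493 to 4710 when 1 library was left out. In the difference between the edits 1 member was lower; array weights per table called 2, and leaving out 1 library 0 to 4. Over all genes 1457 were higher and 696 lower, against 1886 and 1137 with no filter, and 807 to 3732 and 320 to 2383 when 1 library was left out. Replicate numbers did not pair the libraries: deviations of same-numbered libraries from their group means had correlations no further from 0 than 0.0245. With the replicate number as a block, 4 members were higher in sgMyc and 0 lower (389 and 560 of all genes), without Bst2 (adjusted p = 0.0682) and Ifitm3 (adjusted p = 0.0592), 2 and 2 in sgNAT10 mRNA, 0 and 1 in footprints, 0 and 0 in translational efficiency (0 and 1 of all genes), and 0 and 1 in the difference between the edits (910 and 346 of all genes). Where a setting changed a call the cause was not tested. Both member peaks kept an enrichment of at least 2. Footprints of Isg20 in sgNAT10 and of Ifitm2 rest on few reads, and depth limits them.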
